A study of Mus musculus with 89 samples.

Results

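Gm4724, Gm2007, 0610010B08Rik and Gm14434 are 4 neighbouring zinc finger genes on mouse chromosome 2. They were taken by symbol from a table of RNA-seq counts with 26276 named rows, and all 4 have a row in it. The values come from V6.5 mouse embryonic stem cells grown with LIF and inhibitors of MEK (PD0325901) and GSK3 (CHIR99021), which hold the cells in the naive state. In every RNA library the H2afz gene, which encodes the histone variant H2A.Z.1, carries an FKBP-V degradation tag. In 3 libraries the cells had received dTAG, a small molecule that sends FKBP-tagged proteins to the proteasome, and 3 libraries were labelled control. The length of treatment, whether the tagged line is a single clone and whether the libraries came from separate cultures are not given for the RNA in the sources used here. The genes were chosen with measured values of dTAG and control libraries known, so differences between these groups are described and not tested.

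KRAB zinc finger proteins bind DNA through rows of C2H2 fingers. Their KRAB domain recruits the corepressor Trim28, which brings the histone H3 lysine 9 methyltransferase Setdb1, and many members of the family silence transposable elements in early embryos. In rodents such genes lie in tandem clusters that grew by duplication, so neighbours can be nearly alike in sequence. Protein sequences were not used here, so the fingers and KRAB domains of the 4 genes were not checked.

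In the RefSeq annotation of GRCm38.p6, all 4 are protein-coding genes on chromosome 2, and together they span 1069 kb. Gm4724 lies at chr2:175418037-175704126, a span that also holds Zfp965, a row of its own in the count table, so reads of the overlap are uncertain for Gm4724. Gm2007 lies at chr2:175737837-175754980. 0610010B08Rik, which RefSeq lists as Gm2026, lies at chr2:175965250-175981734 and Gm14434 at chr2:176470369-176486853. The last 2 of these spans have the same length, 16485 bases. A further 21 rows of the table were placed within 1000000 bases of this block, by their symbols or as protein-coding genes named Gm, Zfp or Rik.

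The promoter windows show how alike the copies are near their starts only. The transcripts, from which the counted reads come, were not compared. The RefSeq windows of 300 bases, 250 before the start and 50 after it, are identical letter for letter in Gm4724, 0610010B08Rik and Gm14434. The window of Gm2007 is shifted upstream by 68 bases and shares a run of 232 bases with each of the other 3. The 250 bases before the start are printed for Gm14434 and Gm2007, and for Gm14288 and Zfp966, neighbours in the same cluster with counts of similar size. Capitals mark a run of 91 bases that Gm14434 and Zfp966 share, of which 73 lie within the bases printed for Gm2007. The windows lie at chr2:176486750-176486999 (minus strand) for Gm14434, chr2:175737624-175737873 (plus strand) for Gm2007, chr2:175801039-175801288 (minus strand) for Gm14288 and chr2:175931101-175931350 (minus strand) for Zfp966. The start of a window is not always the edge of the gene span. The span of Gm14434 ends at 176486853 and that of Gm2007 begins at 175737837, both within the printed bases. Part of those bases thus lies inside the spans, and the shift of 68 bases depends on the start each window uses.
Gm14434: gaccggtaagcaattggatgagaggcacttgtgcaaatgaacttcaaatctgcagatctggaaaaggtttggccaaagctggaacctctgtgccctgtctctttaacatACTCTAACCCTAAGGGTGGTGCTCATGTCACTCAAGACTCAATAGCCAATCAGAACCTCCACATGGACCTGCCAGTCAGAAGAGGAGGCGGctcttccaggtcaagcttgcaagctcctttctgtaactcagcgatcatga
Gm2007: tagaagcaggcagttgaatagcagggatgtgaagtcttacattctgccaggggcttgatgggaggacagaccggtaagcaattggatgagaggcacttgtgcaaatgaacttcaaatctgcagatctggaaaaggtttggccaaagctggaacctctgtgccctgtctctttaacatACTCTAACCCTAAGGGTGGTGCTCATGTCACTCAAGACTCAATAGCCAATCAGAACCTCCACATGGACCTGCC
Gm14288: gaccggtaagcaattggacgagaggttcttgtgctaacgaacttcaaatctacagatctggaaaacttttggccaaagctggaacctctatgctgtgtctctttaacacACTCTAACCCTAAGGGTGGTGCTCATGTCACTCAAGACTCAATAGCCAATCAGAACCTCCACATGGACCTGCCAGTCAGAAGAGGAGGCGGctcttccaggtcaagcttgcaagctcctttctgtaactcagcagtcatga
Zfp966: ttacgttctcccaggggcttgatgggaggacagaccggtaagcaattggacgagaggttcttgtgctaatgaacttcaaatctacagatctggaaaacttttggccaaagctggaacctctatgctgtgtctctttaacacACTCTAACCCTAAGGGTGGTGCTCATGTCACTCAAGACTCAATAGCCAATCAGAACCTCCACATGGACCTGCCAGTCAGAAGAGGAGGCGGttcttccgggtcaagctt

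The run in capitals occurred in 22 of 32851 promoter windows in the RefSeq table, from 19 genes, and all 19 lie on chromosome 2. The full Gm14434 window was found in 4 genes, namely Gm4724, 0610010B08Rik, Gm14434 and the neighbour Gm14308. The letters CCAAT, a box bound by NF-Y, were present on either strand (ATTGG on the other) in all 4 windows and in 37.4% of all windows, and a copy lies within the run in capitals. The letters TATAAA (or, on the other strand, TTTATA) were in 0 of the 4 windows and in 13.6% of all, and GGGCGG (or, on the other strand, CCGCCC) was in 0 of the 4 and in 35.7% of all. The 3 motifs do not overlap by their letters, and a match is a description of the window only.

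The libraries were of unequal depth. dTAG replicates 1, 2 and 3 held 12907095, 2131648 and 1812405 counts in named rows, and the controls held 14091745 to 15652795. Among 1455 rows of odorant and pheromone receptors, genes of sensory neurons, 23.4%, 71.4% and 97.0% had a count in dTAG replicates 1, 2 and 3, against 10.9% to 18.0% in the controls. dTAG replicates 2 and 3 thus stand apart, and results are given with and without them. On the scale of CPM, counts in a row per 1000000 counts in named rows, H2afz stood at 106.6, 56.3 and 35.9 in dTAG replicates 1, 2 and 3, against 78.8, 81.9 and 95.7 in the controls; dTAG acts on the protein, so this does not check the depletion. The 8 embryonic stem cell markers summed to 2585, 1537 and 470.1 CPM in the dTAG libraries and to 2334 to 2459 CPM in the controls, and the 8 feeder fibroblast markers to 43.2, 119.6 and 360.3 CPM in the dTAG libraries and to 29.3 to 42.8 CPM in the controls. Of the fibroblast markers Col3a1 was at 0 counts in dTAG replicate 1 and in all controls, and 0 of the 8 were at 0 in dTAG replicates 2 and 3. Mitochondrial ribosomal RNA made up 6.94%, 4.94% and 0.166% of named counts in dTAG replicates 1, 2 and 3, against 6.84% to 7.13% in the controls. Receptor rows also had counts more often in dTAG replicates 2 and 3, so the marker sums are not read as a change of cell types. The marker levels move with the low values of the zinc finger genes in dTAG replicate 3, and their part in them was not tested. In bulk RNA, fewer cells of a type and less RNA per cell cannot be told apart.

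Raw counts of the 4 genes were nearly equal within 5 of the 6 libraries. In dTAG replicate 1 they were 1600 for Gm4724, 1613 for Gm2007, 1573 for 0610010B08Rik and 1605 for Gm14434. In the same order of genes, dTAG replicate 2 had 186, 184, 181 and 196, while dTAG replicate 3 had 22, 14, 10 and 16. The highest count was above the lowest by 2.54%, 8.29% and 120% in dTAG replicates 1, 2 and 3. Control replicate 1 had 1390, 1344, 1348 and 1372, control replicate 2 had 1445, 1405, 1383 and 1416, and control replicate 3 had 1411, 1383, 1358 and 1386. In the controls the highest was above the lowest by 3.42% to 4.48%, with Gm4724 highest in all 3. Only in dTAG replicate 3, with 62 counts over the 4 rows, did the genes stand visibly apart.

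**Figure D1:**
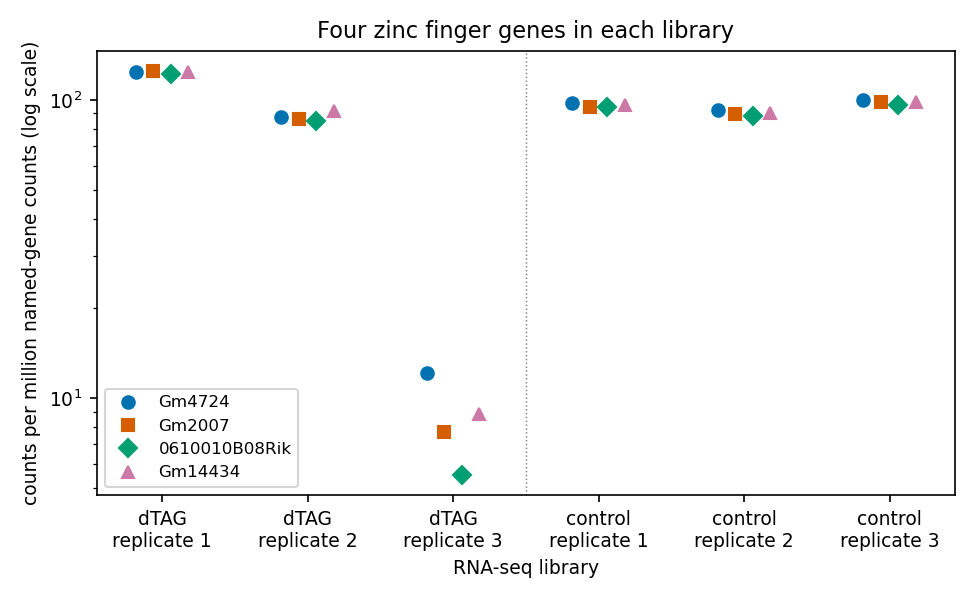
CPM (log axis) of Gm4724, Gm2007, 0610010B08Rik and Gm14434 in the 3 dTAG and 3 control libraries, 1 point per gene and library. The 4 points nearly coincide in 5 libraries and spread in dTAG replicate 3, which has 10 to 22 counts per gene.

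The counts agreed more closely than independent counts of equal expectation would on average. For such counts the variance between genes divided by their mean is about 1. It was 0.188 and 0.226 in dTAG replicates 1 and 2 and 0.341, 0.471 and 0.339 in control replicates 1, 2 and 3. In dTAG replicate 3 it was 1.61, at a mean of 15.5 counts. The standard deviation between the 4 genes was 17.3 counts in dTAG replicate 1, against a square root of the mean of 40.0. Each gene's share of the summed counts was set against 25%, and the exact binomial 95% interval, which covers counting error only, held 25% in 24 of 24 cases. The interval takes each read to fall in a single row, which shared reads would break. The 4 shares of a library add up to the whole, so the 24 cases are not independent. As the genes were chosen with values of these libraries known, the agreement is described and not tested. In dTAG replicate 1 the shares were 24.6% to 25.2%, and in dTAG replicate 3 they were 35.5% (23.7% to 48.7%) for Gm4724 and 16.1% (8.02% to 27.7%) for 0610010B08Rik.

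**Figure D2:**
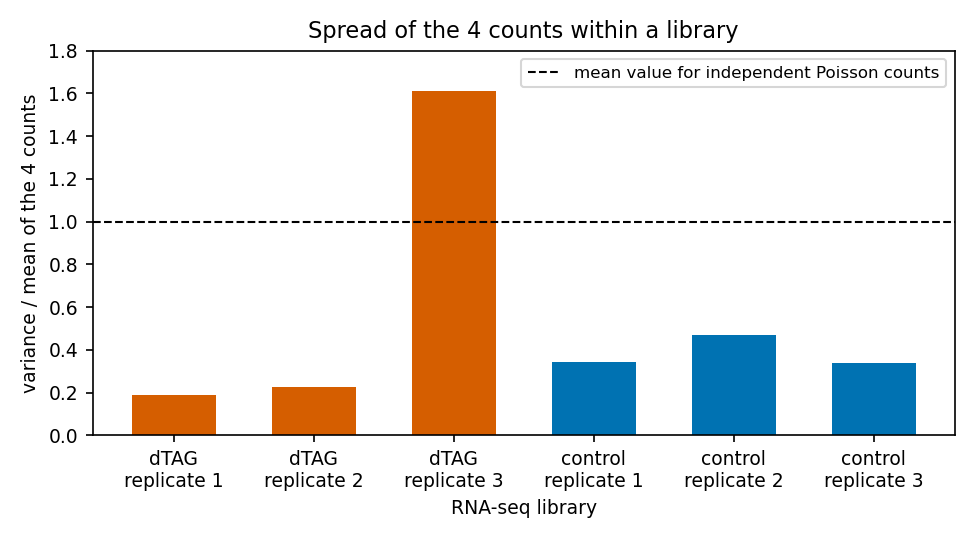
Variance of the 4 raw counts divided by their mean in each library (bars from 0), dTAG libraries in orange and controls in blue; the dashed line at 1 is the mean for independent Poisson counts. The bars lie at 0.188 to 0.471 in 5 libraries and at 1.61 in dTAG replicate 3.

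Over all 6 libraries the likeness was measured by a count distance, the mean over libraries of the squared difference between 2 counts divided by their sum, which is about 1 for independent Poisson counts of equal expectation. The 6 pairs among the 4 genes had distances of 0.144 (Gm2007 with Gm14434) to 1.30 (Gm4724 with 0610010B08Rik). The nearest row outside the 4 lay at 3.31 from Gm4724 (Pcna), 4.40 from Gm2007 (Gm3940), 3.83 from 0610010B08Rik (Gm3940) and 4.53 from Gm14434 (Pcna). Among 5166505 pairs of the 3215 rows with a mean of at least 500 counts, 2260 pairs (0.0437%) were as close as 1.30 or closer. Those pairs held 1573 of the 3215 rows, so a partner within 1.30 was common. The pair Gm2007 and Gm14434 ranked 85th. Most pairs ahead of it held a row of 5S ribosomal RNA (n-R5s). Shmt1 with Wdr77, at 0.0711, was a closer pair of genes with unlike names. The limit of 1.30 was set at the distance of Gm4724 with 0610010B08Rik, so that pair ranked last of these 2260 by definition.

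Identical counts occur in the table for a repeated gene. Some rows of nuclear-encoded 5S ribosomal RNA (n-R5s) had the same counts as each other in all 6 libraries. n-R5s141, n-R5s142, n-R5s144 and n-R5s146 each had 779, 74 and 2 counts in dTAG replicates 1, 2 and 3 and 915, 832 and 801 in control replicates 1, 2 and 3. Of the 9701 rows with a mean of at least 100 counts, 10 had the same 6 counts as another row, and 7 of the 10 were n-R5s rows. These rows were chosen after their values were seen. The 4 zinc finger rows were not identical in any library, and they differed by 12 to 62 counts between the highest and the lowest. The sources used here do not say how reads with several matches were counted, and without the reads the part of each count that is shared was not tested. If shared reads were counted in every matching row, a sum over the 4 rows holds them more than once, so the 4 are not counted as replicates of each other.

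The closest pairs of the cluster were compared with the promoter letters they share. Among the 294 pairs of the 25 cluster rows that are not pairs of the 4, 1 was as close as 1.30, Gm14440 with Gm14288, at 0.666. The windows of that pair share a run of 299 bases. The next pairs by distance were Gm4631 with Gm14305 at 1.79, sharing 183 bases, Zfp966 with Zfp970 at 1.92, sharing 227 bases, and Zfp966 with Zfp967 at 2.03, with an identical window of 300 bases. After them came Gm14308 with Gm14305 at 2.66, sharing 183 bases, and Zfp965 with Zfp973 at 3.03, sharing 260 bases. A long shared run did not by itself go with near-equal counts: Gm14308 has the same window as Gm14434, and it had 608, 71 and 3 counts in dTAG replicates 1, 2 and 3 and 485, 559 and 511 in control replicates 1, 2 and 3.

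**Figure D3:**
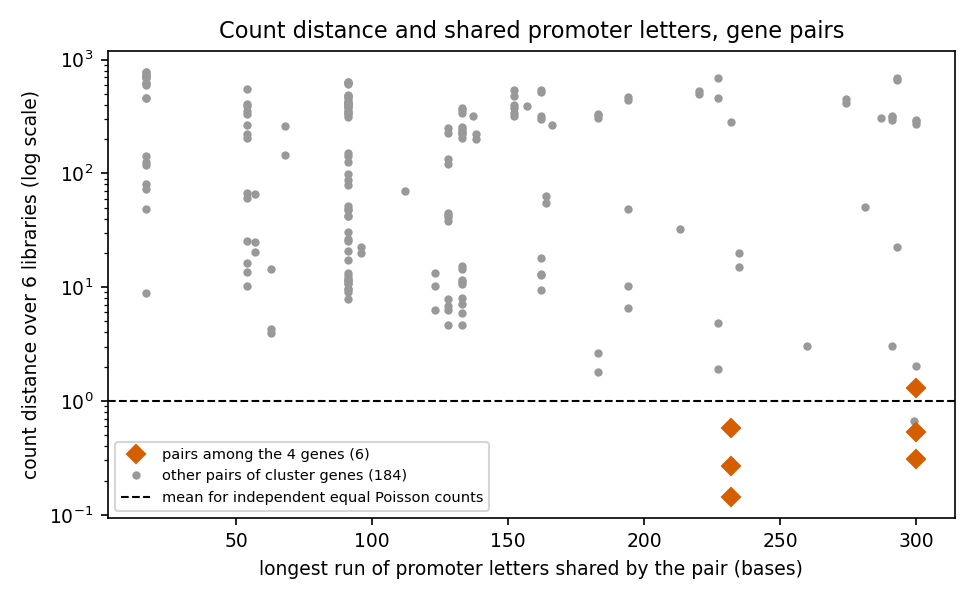
Count distance over 6 libraries (log axis) against the longest run of promoter letters shared by the pair, for pairs of cluster rows that have a RefSeq promoter; orange diamonds are the 6 pairs of the 4 genes, grey points the other pairs, and the dashed line at 1 is the mean for independent equal Poisson counts. The 6 pairs lie at 0.144 to 1.30 with runs of 232 or 300 bases, and grey points with long runs range from 0.666 to far above.

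As CPM, the 4 genes were above every control in dTAG replicate 1, below the control mean in dTAG replicate 2, and far below every control in dTAG replicate 3. Gm14434 had 124, 91.9 and 8.83 CPM in dTAG replicates 1, 2 and 3, against 96.3, 90.5 and 98.4 CPM in control replicates 1, 2 and 3. Gm2007 stood at 125, 86.3 and 7.72 CPM in the dTAG libraries, against 94.4, 89.8 and 98.1 CPM in the controls. The mean of the 4 was 123.8, 87.6 and 8.55 CPM in dTAG replicates 1, 2 and 3 and 95.7, 90.2 and 98.2 CPM in control replicates 1, 2 and 3. The dTAG values thus lie on both sides of the controls.

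0610010B08Rik stood at 122, 84.9 and 5.52 CPM in dTAG replicates 1, 2 and 3, against 94.6, 88.4 and 96.4 CPM in control replicates 1, 2 and 3. It averaged 70.8 ± 59.5 CPM in the dTAG libraries and 93.1 ± 4.22 CPM in the controls (SD, n = 3 each). Gm4724 averaged 74.5 ± 57.0 CPM in the dTAG libraries and 96.7 ± 3.99 CPM in the controls (SD, n = 3 each), with 124, 87.3 and 12.1 CPM in the single dTAG libraries and 97.6, 92.3 and 100.1 CPM in the controls. The spread of the dTAG libraries was thus more than 10 times that of the controls for each of these genes. The log2 fold changes in edgeR's fit over all genes are given as a description. They were -0.70 for Gm4724, -0.67 for Gm2007, -0.69 for 0610010B08Rik and -0.66 for Gm14434. The median was 0.16 over the 18116 genes tested, -0.93 for the 8 embryonic stem cell markers and 1.44 for the 5 feeder fibroblast markers tested.

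The size of the dTAG difference depended on the libraries and the scaling, and its sign on both. The log2 ratio of the summed CPM of the 4 rows, dTAG mean over control mean, was -0.37 with all 6 libraries, 0.16 without dTAG replicate 3 and 0.39 for dTAG replicate 1 alone. On the TMM scale of the edgeR fit, the log2 fold changes without dTAG replicate 3 stayed negative, at -0.16 for Gm4724, -0.12 for Gm2007, -0.13 for 0610010B08Rik and -0.11 for Gm14434. In dTAG replicate 1 the log2 ratios of CPM + 1 to the control mean were 0.36 for Gm4724, 0.41 for Gm2007, 0.38 for 0610010B08Rik and 0.38 for Gm14434. Each control set against the other 2 gave ratios for the 4 genes from -0.11 to 0.09. All 4 were above every control in that library, as were 28.8% of the 8876 genes with a control mean of at least 10 CPM, and 94.4% of those genes had a lower ratio than the mean of the 4. In the edgeR fit of dTAG replicate 1 alone against the controls, the log2 fold changes on the TMM scale were 0.275 for Gm4724, 0.33 for Gm2007, 0.30 for 0610010B08Rik and 0.30 for Gm14434. That fit called 0.0882% of all genes (0.0606% higher and 0.0276% lower).

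In dTAG replicate 2 the ratios were -0.15, -0.12, -0.13 and -0.05 for Gm4724, Gm2007, 0610010B08Rik and Gm14434, beside a median of -0.04 over the 8876 genes. In CPM, 3 of the 4 were below every control in that library, as were 41.4% of the 8876, and Gm14434 lay between the controls. In dTAG replicate 3 the log2 ratios were -2.89, -3.45, -3.85 and -3.29, beside a median of 0.13, and 6.13% of the genes had a lower ratio than the mean of the 4. Below every control in dTAG replicate 3 were 4 of the 4 genes and 42.7% of the 8876. The range between the 4 genes was 0.05, 0.10 and 0.96 in dTAG replicates 1, 2 and 3.

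Most cluster neighbours were also low in dTAG replicate 3, with the exception of Zfp831, which stood at 3.64, 36.6 and 129.7 CPM in dTAG replicates 1, 2 and 3, against 1.85 to 3.71 CPM in the controls. Zfp831 had only 26 to 58 counts in the controls and no promoter window to compare with that of Gm14434. The receptor rows, mostly without counts in the controls, also had counts more often in dTAG replicates 2 and 3. Of 41 further genes named Gm14300 to Gm14499 or Zfp960 to Zfp979, 34 were tested, 0 were called higher and 0 lower at an adjusted p under 0.05 (edgeR), beside 0% of all genes. At an unadjusted p under 0.05 there were 2, Zfp974 and Gm14486, both with a positive log2 fold change, beside 4202 of the 18116 genes tested. DESeq2 called these 2 higher and 0 lower, beside 17.7% of all genes called (17.6% higher and 0.138% lower). The median log2 fold change of the 34 was -0.95. The 15 that lie in the cluster had a median of -0.996. Zfp970 stood at 128.5, 66.6 and 8.28 CPM in the dTAG libraries, against 104.4 ± 4.56 CPM in the controls (SD, n = 3), and Zfp966 stood at 121, 60.5 and 6.62 CPM in the dTAG libraries, against 106.0 ± 11.3 CPM in the controls (SD, n = 3). Zfp967 stood at 118, 60.5 and 2.76 CPM in the dTAG libraries, against 102 ± 15.6 CPM in the controls (SD, n = 3). Named genes of that list outside the cluster were Zfp979 at 168, 92.4 and 9.38 CPM in the dTAG libraries and 162 ± 19.5 CPM in the controls (SD, n = 3), Gm14325 at 119.5, 82.1 and 18.2 CPM in the dTAG libraries against 122.5 ± 5.41 CPM in the controls, and Gm14326 at 118.5, 84.0 and 24.3 CPM in the dTAG libraries against 114 ± 2.46 CPM in the controls (SD, n = 3).

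Sorted by the promoter run shared with Gm14434, a sorting made after the data were seen, the 3 closest copies had ratios near those of the 4 in dTAG replicates 1 and 2. The 3 other genes with a run of 183 or more bases, Gm14308, Gm4631 and Gm14305, had log2 ratios of 0.31 to 0.40 in dTAG replicate 1 and of -0.19 to 0.06 in dTAG replicate 2. The 5 genes with a run of 128 to 133 bases, Gm14288, Gm14440, Zfp970, Gm14391 and Gm6710, had ratios of 0.21 to 0.30 in dTAG replicate 1 and of -0.86 to -0.11 in dTAG replicate 2. The 7 genes with a run of 91 bases had ratios of -0.13 to 0.20 in dTAG replicate 1 and of -1.42 to -0.27 in dTAG replicate 2. Gm14393, whose longest shared run is 17 bases, was at 0.21 in dTAG replicate 1 and -0.26 in dTAG replicate 2, above all 7 of the genes with a run of 91 bases. In dTAG replicate 3 the 3 sets overlapped, at -3.78 to -2.09, -4.17 to -1.99 and -4.78 to -2.36. These sets may share reads as the 4 genes may, so the number of genes is not a number of independent observations, and the differences between sets were not tested.

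**Figure D4:**
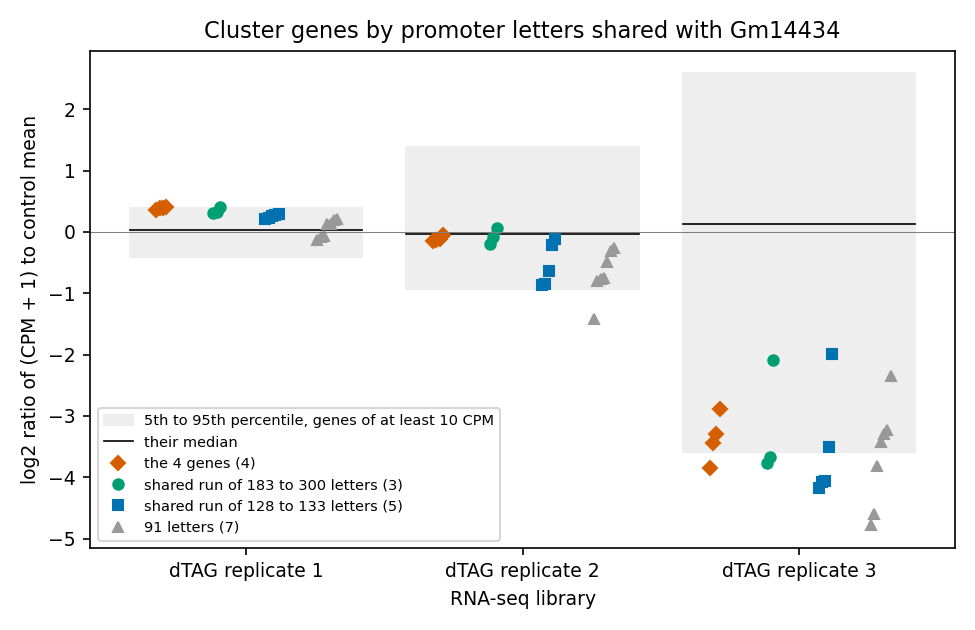
Log2 ratio of CPM + 1 to the control mean in each dTAG library, for the 4 genes and for cluster genes grouped by the longest promoter run they share with Gm14434; the grey band is the 5th to 95th percentile of the 8876 genes with a control mean of at least 10 CPM and the line is their median. In dTAG replicate 1 the 4 genes lie at 0.36 to 0.41 and the genes with a run of 91 bases at -0.13 to 0.20. Gm14393, with a run of 17 bases, and rows without a RefSeq promoter are not plotted.

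**Figure D5:**
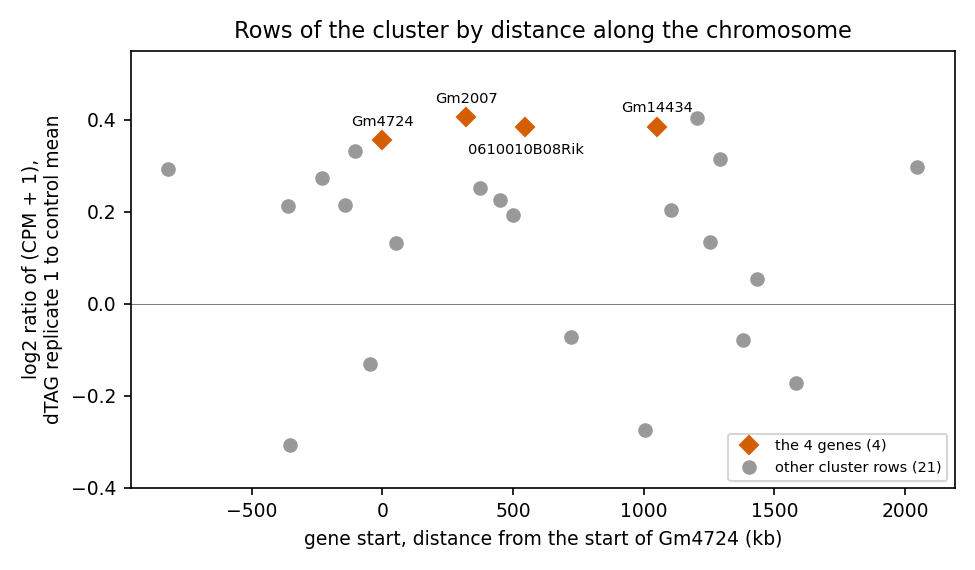
Log2 ratio of CPM + 1 in dTAG replicate 1 to the control mean, against the distance of each gene's start from that of Gm4724 in kb, for the 4 genes (orange) and 21 other rows of the cluster (grey). The 4 genes lie at 0.36 to 0.41, with rows of lower ratio, down to -0.31, between or beside them. Gm14308, a grey point past Gm14434, lies within their range at 0.40.

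Rows with lower ratios lie between the 4 genes on the chromosome. Sorted by start, Zfp965 at 0.13, Gm14288 at 0.25 and Gm6710 at 0.23 in dTAG replicate 1 come between Gm4724 and Gm14434. So do Zfp966 at 0.19, Gm2004 at -0.07 and Gm14435 at -0.27. All of these were below the 4 genes, and Zfp965 lies within the span of Gm4724. The lowest ratio among the 25 rows was -0.31, for the pseudogene Gm14439. Not every other row was below the 4: Gm14308, past Gm14434, was at 0.40, above Gm4724, 0610010B08Rik and Gm14434.

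The rows with the most similar pattern differed with the libraries used. By the root mean square difference of centred log2(CPM + 1), the row nearest to Gm2007 over the 6 libraries was Gm14434, at 0.06 among 18566 rows, and the row nearest to Gm14434 was Gm2007. The row nearest to 0610010B08Rik was Gm14308, a copy with the same promoter window, at 0.06, followed by Gm6710 and Zfp951. The row nearest to Gm4724 was Psma6, a proteasome subunit gene, at 0.08, followed by Scarna10 and Nsa2, while Gm14434 was at rank 50, Gm2007 at rank 176 and 0610010B08Rik at rank 691. Seen from 0610010B08Rik, Gm4724 was at rank 357. Hist1h4d and Hmgcs1 came next for Gm2007, and Sem1 and Hist1h4d for Gm14434. Over dTAG replicate 1 and the 3 controls alone, 0610010B08Rik and Gm14434 were nearest to each other, at 0.0030, and the remaining pairs of the 4 ranked between 4 and 19.

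The corepressor genes on which KRAB zinc finger proteins rely had 0 of 17 members called in either direction (edgeR), with a median log2 fold change of -0.88 and 0 at an unadjusted p under 0.05. Over all 18116 genes the same fit called 0% and had 4202 at an unadjusted p under 0.05. Trim28 stood at 699, 442 and 98.8 CPM in the dTAG libraries, against 598 ± 24.7 CPM in the controls (SD, n = 3). Chd4, a nucleosome remodeller of the NuRD complex, stood at 514, 410.0 and 142 CPM in the dTAG libraries, against 537 ± 36.9 CPM in the controls (SD, n = 3).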

How the data were processed

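RNA-seq counts of 6 libraries, 3 dTAG and 3 control, were analysed, and the other 83 of 89 samples of the series are not analysed here. Groups and columns follow the sample titles. Raw whole-number counts by gene were deposited by the authors as a table of 27179 rows. Per the labels' protocols, ERCC spike-ins were added, libraries were stranded and sequenced as 75-base paired ends, and RNA was described as ribosome-depleted with a kit for messenger RNA. The count table has 0 ERCC rows, so no value here is scaled to the spike-ins. Per the submitters' processing notes, STAR 2.7.2b, featureCounts, edgeR, limma and build mm10 were used; the sources used here do not give the annotation or the treatment of strand and of reads with several matches. The 903 rows without a Symbol, 2.20% to 14.6% of counts, were left out.

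CPM are counts per 1000000 counts in named rows; 3 counts, the limit a count of 0 allows, are 0.192 to 1.66 CPM. edgeR 4.0.16 in R 4.3.3 (TMM, filterByExpr, quasi-likelihood test, Benjamini-Hochberg over all genes, design of group alone) was fitted to the whole table after a check on simulated data. The simulated libraries had even depth, so the check does not show how the fit behaves at the unequal depths here. DESeq2 1.42.0 and limma 3.58.1 were alternatives, with other scalings, filters and left-out libraries. Nothing says that the libraries are separate cultures, so p-values reflect only their spread, possibly technical. The members and lists were chosen with earlier results of these data known; named genes are the 4, H2afz, the 6 most abundant listed neighbours, the 3 rows most like each member and up to 2 per list, and others were chosen after their values were seen. The planned list of neighbours needed protein sequences, which were not used here, so its written substitute by symbol was taken and a list by position was added after seeing the data. RefSeq rows matched all 4 members and 97.4% of symbols by symbol or synonym; mm10 and GRCm38.p6 share their chromosome coordinates.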

Additional observations from a re-analysis of the deposited data

How the results depend on the processing

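Over all genes, 0 were called with edgeR; 1398 were called with no filter on low counts, 3206 with DESeq2, 16 with dTAG replicate 1 alone, 13 with the replicate block, and between 0 and 13222 when 1 library was left out, the largest without dTAG replicate 1. Of the 41 listed neighbours 0 were called, 2 with DESeq2, and 0 to 32 when 1 library was left out. The 32 were called without dTAG replicate 1, where 13222 genes were called over the whole table. The positional list, of 17 genes, was added after the data were seen. Of these 0 were called, 1 with no filter on low counts, 1 with DESeq2 and 11 without dTAG replicate 1. As so many genes were called in that last fit, its counts are not read as a result about either list. With dTAG replicate 1 alone the log2 fold changes turned positive, at 0.275 for Gm4724, 0.326 for Gm2007, 0.305 for 0610010B08Rik, 0.304 for Gm14434 and 0.062 for the neighbours' median. The summed log2 ratio was -0.37 and ran between -0.978 and 0.158 when 1 library was left out, and it was 0.386 with dTAG replicate 1 alone. The log2 fold changes of the 4 genes were -2.10 to -2.34 with limma-voom, -1.87 to -1.98 without dTAG replicate 1 and -1.47 to -1.60 with the replicate block. Matched gene by gene, 0 of the 12 places for the most similar rows were filled by the same row over 4 libraries. The replicate block treats libraries with the same number as pairs, but they did not deviate together (correlations 0.0433, -0.0286 and 0.0391). The cause of each change was not tested. In dTAG replicate 3 the 10 to 22 counts per gene limit any ratio between the 4 genes.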
